A study of Mus musculus with 15 samples.

Results

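Low-dose cilengitide (ldCil) given alone was compared with control in cultured mouse heart muscle cells. The comparison used 7 of the 15 RNA-seq libraries: 3 control libraries (control 1, 2 and 3) and 4 ldCil libraries (ldCil 1 to 4), chosen by their treatment labels. All were wild-type C57/BL6 primary cardiomyocytes from the whole hearts of mice aged 1 to 3 days, kept 5 days in culture, starved for 24 h in 0.5% FBS and treated from day 6, with lysis after 8 days. Control cells received saline and ldCil cells received 20 nM cilengitide. The other 8 libraries, 4 given 1 µM angiotensin II (AngII) and 4 given AngII with ldCil, entered the gene filter, the shared estimate of the spread, a side comparison in the AngII arm and the check of how libraries resemble each other. No label says that the libraries of a group came from separate cultures or litters, and the spread behind each p-value may therefore be technical.

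Cilengitide is a cyclic peptide built on the Arg-Gly-Asp (RGD) motif and binds the integrins αvβ3 and αvβ5, cell-surface receptors that hold cells to matrix proteins such as vitronectin, fibronectin and osteopontin. At high doses it is known as an antagonist and as an anti-angiogenic agent, and at low doses it is known to promote the growth of blood vessels, with receptor recycling and VEGF receptor signalling among the processes described. Heart muscle cells carry integrins at their attachment sites and sense load through them, and the question of this comparison was whether ldCil on its own alters the transcriptome of these cells without AngII stress.

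Levels are given as log2 RPKM, reads scaled for gene length and for library size on a log2 scale, and differences as the log2 fold change of ldCil over control. Of 14337 genes, 12848 whose mean across all 15 libraries was 0 or more were tested with limma. The number of reads per library is unknown, as no counts were used here.

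The cells carried the heart muscle programme in every library. All 30 cardiomyocyte markers lay between 6.06 and 12.40 log2 RPKM, and Myh6, the α-myosin heavy chain, was at 11.08, 11.40 and 11.27 in control and 11.40, 11.40, 11.27 and 11.27 in ldCil. At the top of the scale the normalisation gave the same value to the same rank, so equal Myh6 values mark an equal rank. Markers of other heart cells were also present. Summed over the list, 18 fibroblast genes reached 5195 to 5892 RPKM in control and 4745 to 5853 in ldCil. The 16 macrophage genes reached 273.2 to 370.2 in control and 191.2 to 350.3 in ldCil, and the 13 endothelial genes 118.0 to 133.6 and 106.9 to 133.2. Only markers passing the gene filter were summed, 18 of 20 listed for fibroblasts, 16 of 20 for macrophages and 13 of 18 for endothelium. None of these was below 0 log2 RPKM in every library, a result that the filter made likely in advance.

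The 4 ldCil libraries did not resemble each other. ldCil 1 and 2 correlated at 0.987 across genes, ldCil 3 and 4 at 0.965, and the members of one pair with those of the other at 0.905 to 0.925, below the 0.968 to 0.989 among the control libraries. On the first principal component of the 7 libraries, with 64% of the variance, ldCil 3 and 4 scored -60.78 and -50.4, while ldCil 1 and 2 scored 29.96 and 26.69 beside 23.46, 1.33 and 29.75 in control. ldCil 3 and 4 were closer to libraries of another group: ldCil 4 correlated at 0.993 with AngII replicate 3 and ldCil 3 at 0.978 with AngII replicate 2. The lowest value in a library was -6.48 and -5.95 in ldCil 1 and 2 and -6.28 to -5.85 in control, but -3.34 and -3.39 in ldCil 3 and 4. Of the AngII libraries, which received no cilengitide, 3 of 4 also had a lowest value above -4, but no control library did, so ldCil 3 and 4 have no control of their own kind. Whether the treatment labels of ldCil 3 and 4 are correct was not tested, and every value that rests on them carries this doubt. Accordingly, results are given with all 4 libraries and, where it matters, with each pair.

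**Figure D1:**
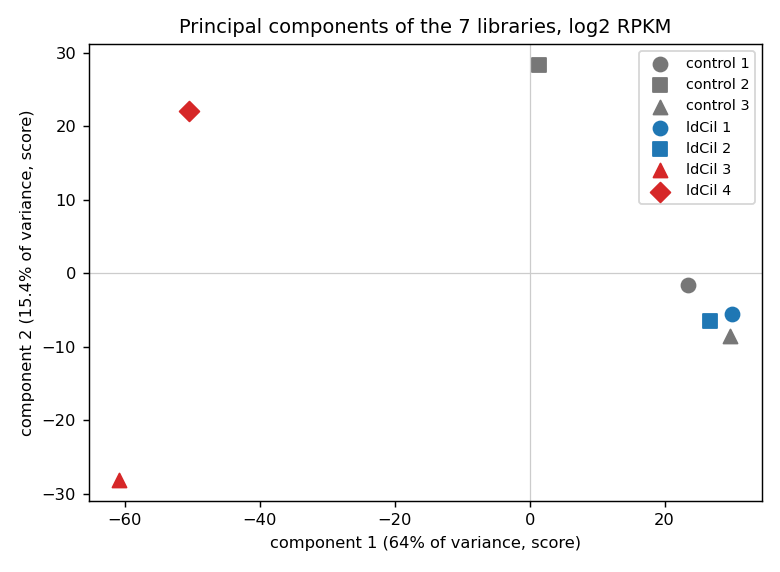
Scores of the 7 libraries on the first 2 principal components of log2 RPKM over 12848 genes; the axes give the share of variance and each point is a library. ldCil 3 and 4 (red) lie at -60.78 and -50.4 on component 1, while ldCil 1 and 2 (blue) lie at 29.96 and 26.69, near control 1 and 3 (grey).

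Genes for the receptors that cilengitide binds were measured first. Itgav, the αv subunit (chromosome 2: 83724397 to 83806916, GRCm38, plus strand), was at 6.28, 6.21 and 6.38 log2 RPKM in control and at 6.31, 6.25, 5.70 and 5.78 in ldCil. The first pair of ldCil libraries lay within the control range and the second pair below it. The log2 fold change of Itgav was -0.28 ± 0.18 (SE), and it was -0.01 with ldCil 1 and 2 and -0.55 with ldCil 3 and 4. Itgb3, the β3 subunit, was at 3.49, 2.44 and 3.85 in control and at 3.63, 3.71, 3.86 and 3.37 in ldCil, so the groups overlapped and control 2 was the lowest library. Itgb5, which pairs with αv in the second cilengitide receptor, was at 7.47, 7.69 and 7.33 against 7.22, 7.37, 7.11 and 7.52.

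Among the other RGD-binding subunits, Itga5, the fibronectin receptor α5, had the smallest p. Its level was 6.93, 6.77 and 7.06 in control and 7.19, 7.20, 7.99 and 7.04 in ldCil, a log2 fold change of 0.44 ± 0.21 (SE). Without ldCil 3 and 4 the Itga5 difference was 0.27. Itgb8, which with αv activates latent TGF-β, was at -0.51, 0.81 and 0.63 against 0.64, 0.01, 2.14 and 2.02. Itga8 stood at 1.84, 3.96 and 1.86 in control and at 1.78, 1.57, 4.30 and 4.54 in ldCil, with control 2 on the side of ldCil 3 and 4. Itgb1, the subunit shared by most integrins, spanned only 9.44 to 9.59 over the 7 libraries. Over the 9 integrin genes 5 were higher and 4 lower, with a median log2 fold change of 0.07 beside 0.00 (0.001) for all genes tested, and none had an unadjusted p under 0.05. This median changed sign with other settings: it was -0.01 with ldCil 1 and 2 alone, 0.35 with ldCil 3 and 4 alone and -0.07 with library weights.

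**Figure D2:**
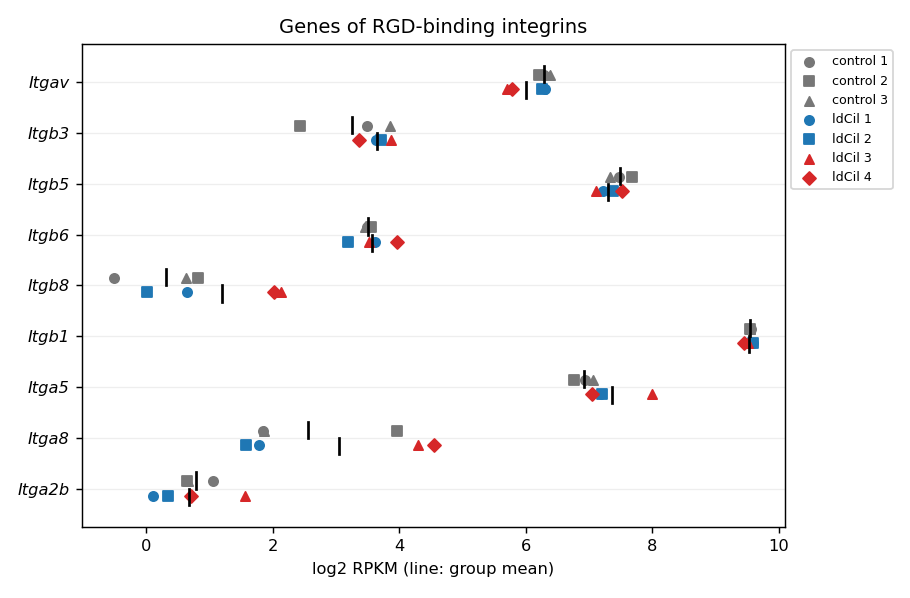
Level of the 9 genes of RGD-binding integrins in log2 RPKM (x axis) in each of 3 control (grey) and 4 ldCil (blue and red) libraries, with black lines at the group means. The groups overlap for every gene, and for Itgav, Itgb8 and Itga8 the red points (ldCil 3 and 4) lie away from the blue ones.

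RGD-bearing matrix ligands of these integrins were counted next. Of 17 tested, 10 were higher and 7 lower, with a median of 0.02, and none had an unadjusted p under 0.05. Tnc, tenascin C, was at 6.43, 5.49 and 6.46 in control and at 6.76, 6.77, 7.21 and 6.50 in ldCil, with all ldCil libraries above all control libraries but by as little as 0.05 between ldCil 4 and control 3. Fn1, fibronectin, was at 9.95, 10.27 and 9.92 against 10.07, 10.15, 9.42 and 9.61. Spp1, osteopontin, spread over 5.33, 7.30 and 5.77 in control alone, and its 4 ldCil libraries lay inside that spread. Of 26 genes of integrin adhesion and signalling, 13 were higher and 13 lower. The one with an unadjusted p under 0.05 was Tln2, the talin isoform of muscle, beside 0.49% of all genes tested on the lower side. Its level was 7.34, 7.27 and 7.45 in control and 7.15, 7.39, 6.58 and 6.56 in ldCil (log2 fold change -0.43).

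Across the transcriptome, no gene passed an adjusted p of 0.05 in limma with Benjamini-Hochberg adjustment, 0% of those tested, and the smallest adjusted p was 0.966. At an unadjusted p under 0.05 there were 251 genes, 188 higher (1.46%) and 63 lower (0.49%), where 5% of the genes tested would be 642.4. At an unadjusted p under 0.01 there were 33 genes, 29 higher (0.226%) and 4 lower (0.0311%), where 1% would be 128.48. The split between higher and lower did not hold across settings: it was 12 and 5 with quantile normalisation, 284 and 257 with library weights, 15 and 13 with the class of a library by its lowest value (under or over -4) as a covariate, 2 and 10 without ldCil 3 and 4, and 294 and 307 without ldCil 1 and 2. All 4 ldCil libraries lay above all 3 control libraries for 450 genes (3.5%) and below them for 433 (3.37%). The SD between ldCil libraries exceeded that between control libraries in 10460 genes, with a median SD of 0.267 in ldCil and 0.13 in control. The count at p under 0.01 depended on single libraries: it was 6 without ldCil 3, 14 without control 3 and 58 without ldCil 2, while without ldCil 3 and 4 it was 12 and without ldCil 1 and 2 it was 601.

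The 33 genes at an unadjusted p under 0.01 were mostly of low level: 26 of them (78.8%) had a mean under 2 log2 RPKM over the 7 libraries, against 19% of all genes tested, and 20 (60.6%) were protein-coding, against 91.6%. Low levels themselves differed between the libraries, as 6.63% and 8.13% of the genes in the table were below 0 in ldCil 3 and 4, against 11.5% to 13.1% in the other 5 libraries; the part of this in the result was not tested. In 31 of the 33 the groups did not overlap. Over all genes tested, 3.5% had all ldCil libraries above control and 3.37% had all below. Choosing genes by p in these same libraries makes such a separation likely in advance. It therefore adds no support, here or for the genes described below. The absolute log2 fold changes of the 33 ran from 0.39 to 2.33 with a median of 1.15. None of the genes described next passed the adjusted threshold: each had an adjusted p of 0.966 (limma), and an exact permutation test of 3 against 4 libraries cannot go below 0.0571 (two-sided).

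The gene with the smallest p was 8430422M14Rik, an unconfirmed transcript on the minus strand of chromosome 3 (35955436 to 35956257). Its level was -0.92, -0.51 and -2.04 log2 RPKM in control and 1.14, 1.00, 0.94 and 1.62 in ldCil, so all ldCil libraries were well above all control libraries. The log2 fold change was 2.33 ± 0.48 (SE), and it was 2.22 with ldCil 1 and 2 and 2.43 with ldCil 3 and 4. The antisense gene Gm15952 overlaps 8430422M14Rik, and whether the counting used strand is not given in the sources used here.

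Rln1, which encodes the peptide hormone relaxin (chromosome 19: 29331170 to 29334670, minus strand), came next. It was at -1.40, -1.70 and -0.58 log2 RPKM in control and at 0.28, 0.15, 1.21 and 1.31 in ldCil. Each ldCil library exceeded each control library, and the second ldCil pair was the highest. Rln1 was a low gene, with a mean of -0.105 log2 RPKM over the 7 libraries. The log2 fold change of Rln1 was 1.96 ± 0.42 (SE), 1.44 with ldCil 1 and 2 and 2.48 with ldCil 3 and 4. Among 7 genes of the relaxin and insulin-like growth factor group, 6 were higher and 1 lower. Of the 7, 2 were higher at an unadjusted p under 0.05, Rln1 and Igfbp4, beside 1.46% of all genes tested. Rln1 had already been named by its p, and the list was chosen with earlier results of these data known. The count therefore adds no support for the group. Igfbp4, a binding protein that limits insulin-like growth factors, was at 1.91, 3.27 and 2.19 against 3.79, 3.54, 3.54 and 3.40, a log2 fold change of 1.11 that was 1.21 with ldCil 1 and 2 and 1.01 with ldCil 3 and 4. By contrast, Igfbp2 (3.95, 4.73 and 3.62 in control, 3.87, 3.92, 6.11 and 6.50 in ldCil) was above control in ldCil 3 and 4 but not in ldCil 1 and 2.

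Zfp169, Zfp948 and Zfp248 encode zinc finger proteins, which belong to a large family and were named by their p alone. Zfp169 was at -0.12, -1.11 and -1.01 in control and at 0.18, 0.77, 1.40 and 1.17 in ldCil. Zfp948, the most expressed of them, was at 2.72, 3.02 and 2.79 against 3.47, 3.31, 3.76 and 3.37, a log2 fold change of 0.63 ± 0.17 (SE). Zfp248 ran from -0.20 to 0.55 in control and from 0.85 to 1.85 in ldCil. In all 3 the groups did not overlap. When libraries were weighted by their agreement with their group, which gave ldCil 3 and 4 weights of 0.209 and 0.317 and control 1 a weight of 7.01, Zfp948, 8430422M14Rik and Gm42979, an unnamed transcript picked out after its value was seen, passed an adjusted p of 0.05 in limma.

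Mir17hg, the host transcript of the miR-17~92 microRNA cluster (chromosome 14: 115042879 to 115046727, plus strand, GRCm38), was at -0.49, -1.23 and -0.33 log2 RPKM in control and at 0.62, 1.00, 2.01 and 1.15 in ldCil. The groups did not overlap, with ldCil 3 the highest. Its log2 fold change was 1.87 ± 0.53 (SE), and 1.49 with ldCil 1 and 2. The 6 mature microRNAs below lie within the host gene, and they are shown because the host transcript is the only part of the cluster that poly(A) libraries report. The mature microRNAs themselves were not measured. Capitals mark the seed, bases 2 to 8, and the sequences (RefSeq, GRCm38.p6) fall into 4 seed groups, with miR-17-5p and miR-20a-5p sharing one and miR-19a-3p and miR-19b-3p another.
miR-17-5p: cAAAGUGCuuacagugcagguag
miR-20a-5p: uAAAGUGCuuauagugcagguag
miR-18a-5p: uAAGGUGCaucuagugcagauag
miR-19a-3p: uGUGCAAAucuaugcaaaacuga
miR-19b-3p: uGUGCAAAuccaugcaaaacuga
miR-92a-3p: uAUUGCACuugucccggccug

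The remaining genes on the higher side included enzymes and a secreted hormone. Lcat, the plasma enzyme that esterifies cholesterol, was at 0.28, 0.53 and 0.06 in control and at 1.50, 0.89, 1.82 and 1.80 in ldCil (log2 fold change 1.21 ± 0.34 SE). Erfe, the hormone erythroferrone, was at 0.76, 0.23 and 0.46 against 1.48, 1.04, 1.64 and 1.44. Hyi, annotated as a polymorphic pseudogene of hydroxypyruvate isomerase, was at 2.47, 2.22 and 2.36 against 2.66, 2.81, 3.51 and 2.91, and Tmem86b, a lysoplasmalogenase, spanned -0.47 to 0.89 in control and 0.95 to 1.94 in ldCil. All 4 of these genes separated the groups. Each of Lcat, Erfe, Hyi and Tmem86b overlaps a gene on the other strand, so reads of the partner cannot be told apart without strand. Glud-ps and Eif1-ps1 are processed pseudogenes, whose reads may come from their parent genes, and they are uncertain. The non-coding transcripts Gm26737, Gm20342 and Gm37328 complete the 15, with log2 fold changes of 1.20, 1.57 and 1.31. These overlap other genes too, Gm26737 with Rnf26 and Gm49380 on the other strand. Gm20342 overlaps Ino80dos and Gm37328 overlaps Rabgap1l on the same strand, so strand alone may not separate their reads. Gm20342 was also a low gene, with a mean of -0.19 log2 RPKM over the 7 libraries.

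Of the 4 genes on the lower side at an unadjusted p under 0.01, Fabp7 had the largest difference. Fabp7, the fatty acid binding protein of brain and glia, was at 1.999, 2.08 and 2.50 log2 RPKM in control and at 1.48, 1.33, -0.18 and -0.10 in ldCil. Its log2 fold change was -1.56 ± 0.44 (SE), -0.79 with ldCil 1 and 2 and -2.33 with ldCil 3 and 4. All ldCil libraries were below control, the second pair by far the lowest. Casp6, an executioner caspase of apoptosis, was at 3.24, 3.30 and 3.02 against 2.61, 2.73, 1.99 and 2.80 (log2 fold change -0.65). Rhbdd2, a membrane protein of the rhomboid family, was at 4.08, 3.84 and 3.98 against 3.73, 3.60, 3.06 and 3.26. Aga, a lysosomal enzyme that breaks down glycoproteins, was at 4.90, 4.93 and 4.98 against 4.59, 4.68, 4.36 and 4.56. Casp6 and Aga were lower with either pair, at -0.52 and -0.30 with ldCil 1 and 2 and at -0.79 and -0.47 with ldCil 3 and 4.

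The next 11 genes on this side had an unadjusted p under 0.05. They included Nme4, a mitochondrial nucleoside diphosphate kinase (2.20, 2.11 and 1.94 in control, 1.66, 1.11, 1.08 and 0.88 in ldCil), and Gstt2, a glutathione transferase (1.34, 1.28 and 1.78 against 0.92, 0.76, 0.94 and 0.68). Both had every ldCil library below every control library. Avpr1a, a vasopressin receptor, was at 2.11, 1.24 and 2.04 against 0.94, 1.43, -0.23 and 0.14, and its groups overlapped. The other 8 were AI427809, Scaper, Adgra3, Ddit3, 4732491K20Rik, Gm30735, Ap5z1 and Sdf2l1, with log2 fold changes from -1.08 (AI427809) to -0.32 (Adgra3).

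**Figure D3:**
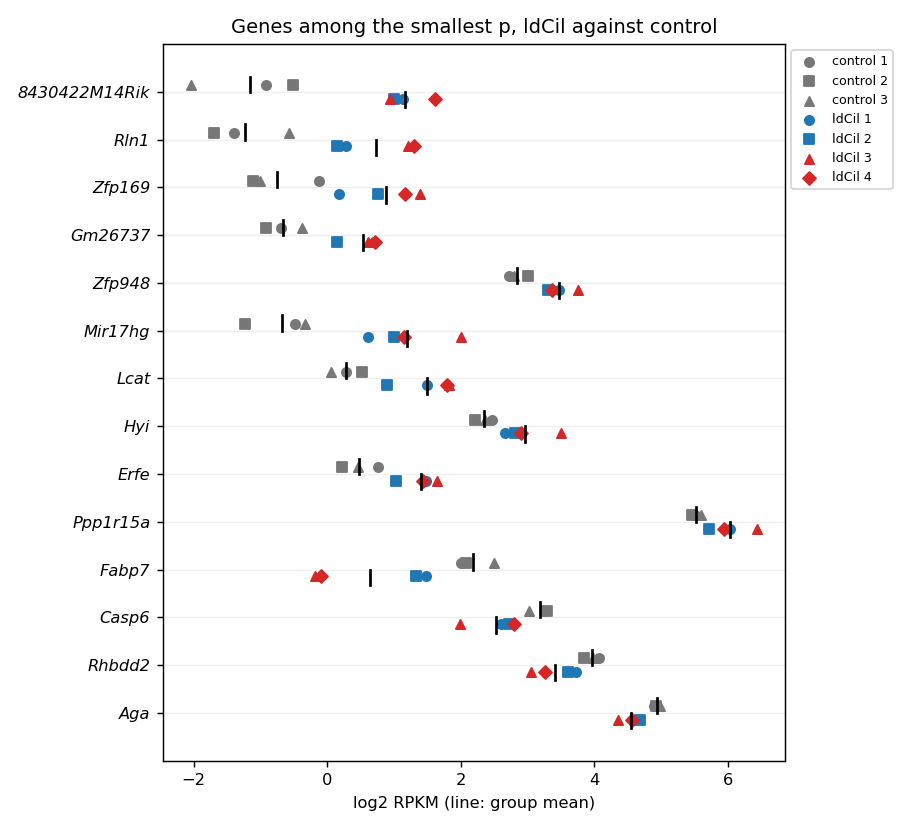
Level in log2 RPKM (x axis) of 10 genes higher and 4 genes lower in ldCil among those with an unadjusted p under 0.01, in each control (grey) and ldCil (blue, red) library, with black lines at the group means. No control point overlaps the ldCil points of the same gene, and Fabp7 and Rln1 show the widest gap between the 2 ldCil pairs.

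The same genes were then read in the AngII arm, which shares no library with the comparison above. The arms differed in the class of their libraries. A lowest value under -4 was found in 3 of 3 control and 2 of 4 ldCil libraries. In the AngII arm it was found in 1 of 4 AngII libraries and 2 of 4 with AngII and ldCil. The part of this in the signs was not tested. Of the 33 genes at an unadjusted p under 0.01, 13 (39.4%) had the same sign in AngII with ldCil against AngII. Of the 251 genes at an unadjusted p under 0.05, 71 (28.3%) had, and of all genes tested 45.3% had. The log2 fold change there was 0.05 for 8430422M14Rik, -0.03 for Rln1, 0.05 for Zfp948, -0.49 for Mir17hg, -0.28 for Lcat, -0.29 for Fabp7 and 0.24 for Casp6. Only Fabp7, of these 7, kept both the sign and more than 0.1 of difference. The 7 are a part of the genes named above. Outside them, Glud-ps (0.43), Eif1-ps1 (0.32), Erfe (0.21) and Gm26737 (0.12) did so too. Zfp169 (0.01) and Aga (-0.02) kept the sign by less. Hyi (-0.20), Tmem86b (-0.22), Zfp248 (-0.16), Gm20342 (-0.36), Gm37328 (-0.46) and Rhbdd2 (0.21) changed sign. The difference of the ldCil effect with and without AngII (the interaction) passed an adjusted p of 0.05 in no gene (0%, limma), with 496 genes at an unadjusted p under 0.05 and a smallest adjusted p of 0.958. Library weights changed this count to 2387.

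Blood vessel genes were examined because ldCil is studied for its effect on vessels. In the list of VEGF signalling and angiogenesis, 12 of 17 tested genes were higher and 5 lower, with a median log2 fold change of 0.25, and 2 of 17 were higher at an unadjusted p under 0.05, beside 1.46% of all genes tested. The VEGF median was 0.15 without ldCil 3, 0.12 with ldCil 1 and 2 (9 higher and 8 lower in both) and 0.07 with library weights. Apln, the vessel-derived peptide apelin, was at 0.21, -0.28 and 1.05 log2 RPKM in control and at 1.41, 0.98, 1.63 and 2.19 in ldCil (log2 fold change 1.23), with control 3 inside the ldCil range. Pdgfb, a growth factor that recruits pericytes, was at 4.43, 3.93 and 4.60 against 4.64, 4.78, 6.97 and 4.92, so that ldCil 3 carried most of its difference. Kdr, the main VEGF receptor of endothelium, was low throughout at -0.47, 0.19 and 0.17 against 0.06, 0.23, 1.41 and 0.67. The endothelial markers were 7 higher and 6 lower, but the ldCil pairs differed. With ldCil 1 and 2 alone 9 were higher and 4 lower (median 0.18). With ldCil 3 and 4 alone 4 were higher and 9 lower (median -0.40). Mmrn2, an endothelial matrix glycoprotein, was at 0.57, 0.86 and 1.31 against 0.39, 0.29, -0.26 and 0.14.

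The study named 12 genes as upregulated in cardiac endothelial cells at both of its times of ldCil treatment. These were also read in the cardiomyocytes. Of the 12, 10 were tested, 7 higher and 3 lower, with a median of 0.19 and no unadjusted p under 0.05. The median was 0.04 without control 2 and 0.05 with ldCil 3 and 4 alone. Eln, elastin, was at 4.15, 4.67 and 4.04 in control and at 4.49, 4.28, 7.40 and 8.39 in ldCil. Ccl7, a monocyte chemokine, was at 7.60, 6.46 and 7.82 against 7.74, 7.80, 4.19 and 3.91. For both genes ldCil 1 and 2 stayed within the control range, and ldCil 3 and 4 stood far outside it.

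Genes of the heart muscle programme showed no shift common to the 4 libraries. Of 24 genes of adult contraction and calcium handling 18 were higher and 6 lower, with a median of 0.07, but with ldCil 1 and 2 alone 3 were higher and 21 lower (median -0.05). The 16 fetal and hypertrophy markers had a median of 0.08. Myh7, the β-myosin heavy chain used as a marker of hypertrophy, was at 6.06, 6.18 and 6.11 log2 RPKM in control and at 6.11, 6.15, 6.60 and 6.84 in ldCil (log2 fold change 0.31 ± 0.45 SE). Nppb, the B-type natriuretic peptide, was at 9.67, 9.78 and 9.73 against 9.86, 9.69, 10.41 and 9.22. Acta1, skeletal α-actin, was at 4.90, 5.24 and 4.60 against 4.76, 4.83, 5.04 and 3.57, with ldCil 4 alone below the rest. Nppa, the A-type peptide, shared the value 11.99 in 6 libraries, since the normalisation gave the same value to the same rank at the top of the scale.

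Some genes of the atria and the conduction system differed between the ldCil pairs, and the 3 given here were picked after their values were seen. Sln, sarcolipin, the atrial regulator of the calcium pump, was at 3.64, 3.82 and 3.44 in control, 3.73 and 3.44 in ldCil 1 and 2, and 5.93 and 6.37 in ldCil 3 and 4. Myl7, the atrial regulatory light chain, was at 6.62, 6.997 and 6.92 in control and at 6.85, 6.84, 8.74 and 9.29 in ldCil. Gja5, the atrial and conduction connexin, was at 3.45, 2.87 and 3.82 against 3.47, 3.56, 5.83 and 5.84. All 3 genes had ldCil 1 and 2 within 0.01 of the control range or inside it, and ldCil 3 and 4 above it. Tbx3, a transcription factor of the conduction system, went the other way, at 2.76, 2.52 and 2.93 in control and 2.95, 2.995, 2.21 and 1.59 in ldCil. Of 21 ion channel genes 17 were higher, with a median of 0.26 that was -0.05 with ldCil 1 and 2.

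Energy metabolism stayed near 0 in the list medians, at -0.03 for 36 genes of respiratory complex I, 0.01 for 41 of complexes II to V, -0.01 for 30 of the TCA cycle and 0.00 (-0.002) for 25 of fatty acid oxidation. For complex I, 4 genes were higher and 32 lower with ldCil 1 and 2 alone (median -0.07). With ldCil 3 and 4 alone 22 were higher and 14 lower (median 0.04). List means, relative to the 7 libraries, lay on opposite sides of 0 in ldCil 3 and 4. They were -0.18 and 0.31 for complex I and -0.16 and 0.41 for complexes II to V. For the TCA cycle they were -0.20 and 0.32, and for fatty acid oxidation -0.09 and 0.30. Sdha, a subunit of complex II, was at 8.22, 8.42 and 8.10 log2 RPKM in control and at 8.17, 8.21, 8.05 and 8.78 in ldCil. Decr2, a peroxisomal enzyme for unsaturated fatty acids, was the one gene of these lists at an unadjusted p under 0.05, with 3.83, 3.69 and 3.72 against 3.27, 3.68, 3.04 and 3.24 (log2 fold change -0.44). On the lower side 0.49% of all genes tested reached that threshold. In glycolysis and the hypoxia response 20 of 28 genes were higher, with a median of 0.16, and 4 of 28 had all ldCil libraries above control, beside 3.5% of all genes tested. With ldCil 1 and 2 alone 12 were higher and 16 lower, with a median of -0.04.

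Stress genes lay on both sides within one list. The list of the PERK-ATF4 response, by which cells answer unfolded protein and amino acid shortage, held 11 genes higher and 19 lower, with a median of -0.14. At an unadjusted p under 0.05 there were 1 higher and 2 lower, beside 1.46% and 0.49% of all genes tested. Ppp1r15a, the phosphatase subunit that ends this response, was at 5.51, 5.46 and 5.60 log2 RPKM in control and at 6.03, 5.73, 6.44 and 5.94 in ldCil (log2 fold change 0.51 ± 0.17 SE). Ddit3, the transcription factor CHOP, was at 5.67, 5.62 and 5.65 against 5.47, 5.62, 5.00 and 4.99, and Phgdh, the first enzyme of serine synthesis, at 5.80, 5.88 and 5.84 against 5.65, 5.72, 5.09 and 5.07. Ppp1r15a was higher in all 4 ldCil libraries, and Phgdh and Ddit3 were lower in all 4, in ldCil 1 and 2 by little.

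Immediate early genes, which cells switch on within minutes of a stimulus, were 14 higher and 8 lower, with a median of 0.09. At an unadjusted p under 0.05 there were 2 of 22, Fosb and Atf3, both higher, beside 1.46% of all genes tested. Fosb was at -0.69, -1.84 and -0.88 in control and at -0.02, -0.31, 2.97 and 1.83 in ldCil (log2 fold change 2.25). Atf3 was at 2.92, 3.03 and 3.31 against 3.62, 3.38, 5.28 and 3.68 (log2 fold change 0.91). Both were above control in every ldCil library, with ldCil 3 the highest. In the list 3 of 22 genes had all ldCil libraries above control, beside 3.5% of all genes tested. Egr3 and Egr2 overlapped between the groups.

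In matrix genes, 14 of 29 collagen genes were higher and 15 lower. Col15a1 alone had an unadjusted p under 0.05, beside 1.46% of all genes tested on the higher side. Col15a1, a basement membrane collagen, was at 3.13, 4.14 and 3.30 log2 RPKM in control and at 4.23, 4.31, 6.77 and 5.90 in ldCil (log2 fold change 1.78 ± 0.62 SE). It was 0.75 with ldCil 1 and 2 and 2.81 with ldCil 3 and 4. Fbln1, the matrix protein fibulin, was at 1.36, 1.98 and 1.29 against 2.39, 2.34, 2.91 and 3.15 (log2 fold change 1.16). Fbln1 was the one of 18 fibroblast markers, 5 higher and 13 lower, at an unadjusted p under 0.05, beside the same 1.46%. Both genes had no overlap between groups, although control 2 came within 0.10 of ldCil 1 for Col15a1. Of all genes tested 3.5% had all ldCil libraries above control. Dcn, the fibroblast proteoglycan decorin, was at 8.62, 7.20 and 8.88 against 8.87, 8.93, 4.87 and 5.13. In bulk RNA fewer cells of a type and less RNA per cell cannot be told apart.

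Interferon and chemokine genes showed the list medians farthest from 0 and a wide gap between the ldCil pairs. All 28 interferon response genes tested were lower, with a median log2 fold change of -1.29, yet none had an unadjusted p under 0.05 and none separated the groups. Irf7, the factor that amplifies interferon production, was at 6.59, 5.57 and 7.26 log2 RPKM in control, 7.01 and 6.88 in ldCil 1 and 2, and 0.71 and 0.60 in ldCil 3 and 4. Bst2, an antiviral membrane tether, was at 6.93, 5.82 and 7.47 against 7.41, 7.04, 3.10 and 3.06. Gbp2, an interferon-induced GTPase, was at 5.44, 4.23 and 5.82 against 5.60, 5.56, 1.52 and 2.41. The mean of the 28 genes, each relative to its own mean over the 7 libraries, was 1.12, -0.57 and 1.72 in control and 1.67, 1.38, -2.83 and -2.48 in ldCil. Control 2 was thus below the other controls and above ldCil 3 and 4. With ldCil 1 and 2 alone all 28 genes were higher, with a median of 0.77, and with ldCil 3 and 4 alone all 28 were lower, with a median of -3.31. Low levels of these genes were also found outside ldCil: their mean level was 0.96, 1.02 and 1.91 log2 RPKM in AngII replicates 2, 3 and 4 and 4.75 in AngII replicate 1, beside 0.88 and 1.23 in ldCil 3 and 4.

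Promoters of interferon genes carry the interferon-stimulated response element, here searched as GAAANNGAAA on both strands in windows from 250 bases before to 50 after the start (RefSeq, GRCm38.p6). It was found in 13 of the 22 list members with a promoter entry (59.1%) in 5 of 16 MHC class I and immunoproteasome genes (31.2%) and in 1 of 11 chemokine genes (9.1%), beside 269 of the 9547 genes tested that had an entry (2.8%). The windows below show the motif before the start in 4 interferon list members, taken by smallest p from those whose window was extracted. Not every member with the motif had a window extracted, so these may not be the 4 smallest p of all. Trim30a and Ifit1 were chosen after their values were seen. Capitals mark the motif, and each sequence is written along the strand of its gene.
Bst2, chr8:71537579-71537604, minus strand: aggaaaatGAAACTGAAAggctgcag
Gbp2, chr3:142620596-142620621, plus strand: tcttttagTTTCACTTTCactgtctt
Trim30a, chr7:104465212-104465237, minus strand: ttctttagTTTCTTTTTCtcagttcc
Ifit1, chr19:34640796-34640821, plus strand: agtctcagTTTCAGTTTCtcactgct
A match describes the letters of the window and not a site in use.

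Antigen presentation and chemokines followed the same order of libraries. All 18 genes of MHC class I and the immunoproteasome were lower, with a median of -0.77. At an unadjusted p under 0.05 there was 1 of 18, beside 0.49% of all genes tested on the lower side. B2m, the invariant chain of MHC class I, was at 9.22, 8.88 and 9.29 log2 RPKM in control and at 9.12, 9.07, 6.45 and 6.70 in ldCil. H2-Q7 was the gene at p under 0.05, at 3.05, 2.10 and 3.44 against 2.58, 2.58, 0.17 and -0.60, but it is nearly identical in sequence to H2-Q6 and the split of reads between them is uncertain. Cxcl5, a neutrophil chemokine, spanned the widest range, at 8.77, 5.61 and 9.24 in control and 9.09, 9.10, -0.51 and -0.20 in ldCil. Il6 was at 5.35, 3.68 and 5.74 against 5.74, 5.64, 0.29 and 1.05. Of 16 chemokine and cytokine genes 12 were lower with all libraries (median -1.20), and all 16 were higher with ldCil 1 and 2 (median 0.74).

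Macrophage markers differed in part between the same libraries. Of 16, 15 were lower, with a median log2 fold change of -0.26. With ldCil 1 and 2 alone the median was 0.09, with 9 higher and 7 lower. With ldCil 3 and 4 alone it was -0.46, with 6 higher and 10 lower. Adgre1, the F4/80 antigen, had the lowest log2 fold change of these markers (-1.10). Its level was 4.43, 3.11 and 4.50 log2 RPKM in control, 4.63 and 4.59 in ldCil 1 and 2, and 1.07 and 1.35 in ldCil 3 and 4. The summed macrophage level was 191.2 and 258.5 RPKM in ldCil 3 and 4 against 273.2 to 370.2 in control, and control 2, which had low interferon genes, had the highest sum. The part of macrophage content in the immune gene differences was not tested.

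**Figure D4:**
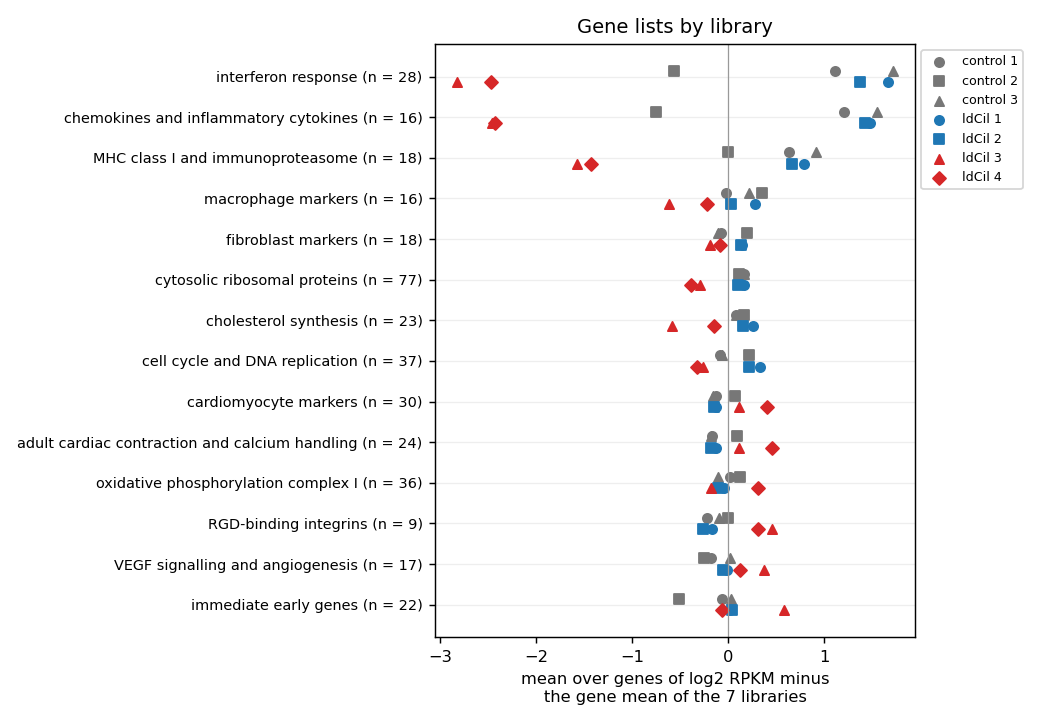
Mean over the genes of 14 lists of log2 RPKM relative to each gene's mean over the 7 libraries (x axis), for 3 control (grey) and 4 ldCil (blue, red) libraries, with the number of genes in parentheses. For interferon response the libraries span 1.72 (control 3) to -2.83 (ldCil 3), with ldCil 1 and 2 at 1.67 and 1.38 and control 2 at -0.57.

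Lists of growth and synthesis differed between the ldCil pairs. Of 77 cytosolic ribosomal protein genes 76 were lower, with a median of -0.26; none had an unadjusted p under 0.05, and 8 of 77 had all ldCil libraries below control, beside 3.37% of all genes tested. Rps9 was at 8.96, 8.87 and 8.84 log2 RPKM in control and at 8.67, 8.82, 8.36 and 8.47 in ldCil. With ldCil 1 and 2 alone the ribosomal median was 0.00 (-0.003), with 37 genes higher and 40 lower, and with ldCil 3 and 4 it was -0.51. Of 23 cholesterol synthesis genes 19 were lower, with a median of -0.26 that was -0.01 without ldCil 3, and 18 were higher with ldCil 1 and 2. Ebp, a sterol isomerase, was at 3.62, 3.43 and 3.58 against 3.09, 3.36, 2.70 and 3.30. For 37 cell cycle genes the median was -0.07, but 36 were higher with ldCil 1 and 2 (median 0.26) and 33 were lower with ldCil 3 and 4 (median -0.42). Mki67, the proliferation antigen, was at 4.96, 5.24 and 5.21 in control and at 5.69, 5.58, 5.25 and 5.24 in ldCil.

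**Figure D5:**
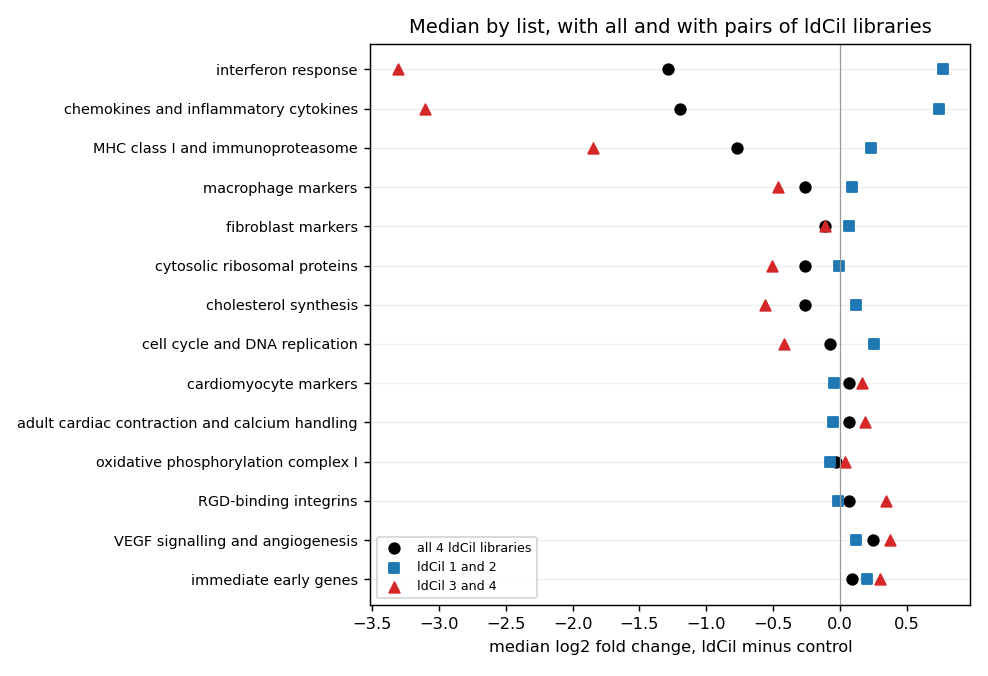
Median log2 fold change of ldCil over control (x axis) for 14 gene lists, with all 4 ldCil libraries (black), with ldCil 1 and 2 (blue) and with ldCil 3 and 4 (red), each against the 3 control libraries. Interferon response lies at -1.29, 0.77 and -3.31, and cytosolic ribosomal proteins at -0.26, -0.003 and -0.51.

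Signalling and antioxidant lists lay near 0 in their medians, with TGF-β and BMP signalling (0.07, 15 of 24 higher), YAP-TEAD targets (0.02, 9 of 16 higher), p53 targets (0.01, 10 of 20 higher), RAS-ERK feedback genes (0.11, 11 of 17 higher), insulin, PI3K and AKT signalling (-0.01, 12 of 26 higher) and antioxidant and metallothionein genes (0.10, 13 of 25 higher). Rasa4, a RAS GTPase-activating protein, was at 2.61, 2.96 and 2.70 log2 RPKM in control and at 2.75, 2.86, 3.30 and 3.40 in ldCil. Hmox1, haem oxygenase, was at 6.71, 5.97 and 6.87 against 6.69, 6.60, 9.80 and 7.59. Neither passed an unadjusted p of 0.05.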

How the data were processed

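RNA was taken up by poly(A) capture, and reads were aligned with HISAT2 to GRCm38 (mm10) and counted with HTSeq, per the submitters' processing notes. Not given in the sources used here were versions, annotation and strandedness. The authors deposited log2 RPKM values after conditional quantile normalisation (cqn), in 1 table of 15 libraries and 14337 genes. Raw counts were not used, so depth is unknown. The 75th percentile (4.93) and the highest value (12.40) are identical in every library. Of the gene identifiers, 14329 were found in GENCODE M21, 12695 with the same version.

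Genes with a mean of at least 0 over 15 libraries were fitted in limma 3.58.1 (R 4.3.3) with 1 mean per group over all 15 libraries, intensity trend and Benjamini-Hochberg adjustment; the fit was tested on simulated data. Two-sided p-values are unadjusted unless named. Members and gene lists were chosen with earlier results of these data known. Named genes were the 15 smallest p per direction, the 4 smallest p of each list and a fixed set of integrin and study genes. Alternatives were other filters, pseudocounts, scalings, spread estimates and left-out libraries; the class of a library by its lowest value (under or over -4), as a covariate, was added after seeing the data.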

Additional observations from a re-analysis of the deposited data

Results flagged for a closer look

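Of 157 groups of 4 ldCil libraries examined for 1 library far from the other 3, 11 were picked out, and chance alone picks out about 1 in 20 such groups. In ldCil 3, Itga5 (7.99 log2 RPKM, others 7.04 to 7.20), Pdgfb (6.97, others 4.64 to 4.92), Cxcl12 (6.95, others 5.71 to 5.91), Atf3 (5.28, others 3.38 to 3.68), Egr2 (3.28, others 1.95 to 2.05) and Nppa (12.40, others 11.99) were higher than in the other ldCil libraries. The mean of the immediate early genes, relative to the 7 libraries, was 0.58 in ldCil 3, against -0.06 to 0.04 in the others, and that of the neuronal and Schwann cell markers was -0.93, against -0.03 to 0.10. In ldCil 4, Mt2, a metallothionein, was at 4.14 (others 5.53 to 5.68) and Socs2, a cytokine signalling inhibitor, at 4.87 (others 3.71 to 3.84), and the mean of respiratory complexes II to V was 0.41, against -0.16 to -0.07.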

How the results depend on the processing

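The count of genes at an adjusted p under 0.05 (limma) stayed at 0 under all alternatives but library weights, which gave 3, and the interaction count stayed at 0 except for 2387 with library weights. The 33 genes at an unadjusted p under 0.01 became 69 with no filter, 8 with a mean of at least 2, 17 with quantile normalisation, 541 with library weights, 601 without ldCil 1 and 2 and 12 without ldCil 3 and 4. Leaving out single libraries gave 6 (without ldCil 3) to 58 (without ldCil 2), with 14 without control 3, and 0 in each case at the adjusted threshold and for the interaction. With the class by lowest value in the model, an alternative chosen after seeing the data, the count was 28, of which 13 were shared with the 33. The filter and the left-out libraries change the genes or samples tested; for the rest the cause was not tested. Of 116 genes followed, 38 changed sign in at least 1 of 20 alternatives. Of 41 list medians 33 changed sign in at least 1 alternative. No paired analysis was possible because the replicate numbers follow accession order and pair no samples. Without counts, depth limits cannot be given, and low genes are the least certain.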

Other observations

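Across all 15 libraries the first principal component held 49% of the variance. ldCil 3 and 4 scored -39.5 and -38.0 on it, beside -41.6 and -39.4 for AngII replicates 2 and 3 and -42.0 for AngII with ldCil replicate 3. ldCil 1 and 2 scored 43.2 and 40.3, beside 37.2 and 43.0 for control 1 and 3 and 48.0 for AngII replicate 1.

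A lowest value under -4 log2 RPKM was found in 3 of 3 control libraries, 1 of 4 AngII libraries, 2 of 4 ldCil libraries and 2 of 4 libraries with AngII and ldCil. With this class as a covariate the median of the 28 interferon genes was 0.09, with 23 higher and 5 lower.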
